A study of Homo sapiens with 6 samples.

Results

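The ATF4 response and serine-one-carbon genes are a set of 31 human genes, taken from the 63563 rows of the deposited gene table by gene symbol. All 31 were found, 29 under a symbol of their own and 2, ATF5 and SHMT1, under a symbol that the table shares with a microRNA lying in the same gene (MIR4751 and MIR6778). The cells were RKO, a human colorectal cancer line. The control group, EV, carried the empty pcDNA3.1 vector, and the other group, OVER43, carried pcDNA3.1 with the cDNA of connexin 43 (Cx43), the gap junction protein encoded by GJA1. Both groups were stable transfectants, and each had 3 libraries of polyA RNA. Whether a group was 1 clone or a pool, and whether the 3 libraries came from separate cultures, is not given in the sources used here. The p-values therefore measure only the spread between these libraries, and a difference between the lines cannot be told apart from a difference made by Cx43. The deposited columns are numbered 0 to 2 within a group, and the sources used here do not say whether equal numbers belong together.

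ATF4 is a transcription factor whose translation rises when the initiation factor eIF2 is phosphorylated by stress-sensing kinases, so that its activity can change without a change in its mRNA. It works with C/EBP partners on genes for amino acid supply, tRNA charging, redox balance and the feedback that ends the response. Serine synthesis from glucose and the folate-linked one-carbon enzymes, which turn serine into units for nucleotides and methyl groups, are among its known outputs, and cancer cells rely on both. RNA levels alone were measured here, and not phosphorylation of eIF2 or the ATF4 protein. In bulk RNA, a change in all cells and a change in some of the cells cannot be told apart.

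Levels are FPKM, fragments per kilobase of transcript scaled to library depth, which allows levels of different genes to be set beside each other. GJA1 was at 24.7 ± 1.44 FPKM in OVER43 and at 0.348 ± 0.0469 FPKM in EV (SD, n = 3 each), in the direction of the labels. The steps between low values imply a depth of about 42.5 M to 52.1 M fragments per library. This is the depth by which the deposited FPKM were divided, and it can differ from the number of fragments sequenced if the libraries were rescaled. Keratin and epithelial markers summed to 199 to 204 FPKM in OVER43 and 156 to 163 FPKM in EV. Members of that list moved in opposite directions: KRT18 was at 148 ± 0.989 FPKM against 79.4 ± 3.68 FPKM, and KRT8 at 24.6 ± 1.63 FPKM against 58.7 ± 1.92 FPKM (SD, n = 3). The 8 fibroblast markers summed to at most 1.11 FPKM and the 4 endothelial markers to at most 0.432 FPKM in any library, and the 6 leukocyte markers to 368 to 387 FPKM in OVER43 and 405 to 421 FPKM in EV. CD68 was the highest of these, and PTPRC, CD3E and MS4A1 were listed at 0. EV library 2 stood apart from the other EV libraries on the second principal component of all tested genes (-17.2, against 9.003 and 8.03), and member calls that were lost or gained without it are given both ways.

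ATF4 and its C/EBP partners bind a composite element, and 5 promoters of the set that hold its core are shown because the genes that carry it include ones that rose and ones that fell. The core searched was TGATGNAA on both strands, in windows of 300 bases from 250 bases before to 50 bases after the gene's start in RefSeq (GRCh38.p14). Of the 31 members, 25 had a promoter in the table, and 5 of these (20.0%) held the core, against 1270 of 35116 promoters (3.62%) in the table as a whole. For a member, only the first promoter listed was counted, whereas the whole counts every promoter of the usual length. The set was also assembled around the ATF4 response, so its higher share tests nothing. A match describes letters and is not evidence of binding. The 250 bases before each start are given in the direction of the gene, with the core in capitals.
PPP1R15B (chr1:204411818-204412067, minus strand): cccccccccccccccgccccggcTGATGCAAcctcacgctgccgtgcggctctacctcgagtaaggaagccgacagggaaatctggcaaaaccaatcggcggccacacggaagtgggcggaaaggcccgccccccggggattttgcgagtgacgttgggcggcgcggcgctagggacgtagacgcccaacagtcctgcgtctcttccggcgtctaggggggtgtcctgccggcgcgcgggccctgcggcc
CHAC1 (chr15:40953221-40953470, plus strand): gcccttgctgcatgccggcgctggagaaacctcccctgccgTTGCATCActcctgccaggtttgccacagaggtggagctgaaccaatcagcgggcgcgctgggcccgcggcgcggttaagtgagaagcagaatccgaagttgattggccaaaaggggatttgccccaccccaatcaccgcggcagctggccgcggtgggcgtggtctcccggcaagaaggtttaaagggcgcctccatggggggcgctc
MTHFD1L (chr6:150866236-150866485, plus strand): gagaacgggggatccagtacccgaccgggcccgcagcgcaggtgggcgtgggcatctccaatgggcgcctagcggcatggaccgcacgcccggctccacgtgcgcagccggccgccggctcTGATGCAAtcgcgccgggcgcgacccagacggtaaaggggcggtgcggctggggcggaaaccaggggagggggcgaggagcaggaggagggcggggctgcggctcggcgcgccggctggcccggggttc
ASNS (chr7:97872409-97872658, minus strand): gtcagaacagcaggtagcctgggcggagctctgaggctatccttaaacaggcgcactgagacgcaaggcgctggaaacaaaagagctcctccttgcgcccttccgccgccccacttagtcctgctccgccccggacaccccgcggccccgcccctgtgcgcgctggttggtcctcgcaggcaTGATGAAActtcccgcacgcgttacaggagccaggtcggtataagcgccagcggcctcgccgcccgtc
GOT1 (chr10:99430625-99430874, minus strand): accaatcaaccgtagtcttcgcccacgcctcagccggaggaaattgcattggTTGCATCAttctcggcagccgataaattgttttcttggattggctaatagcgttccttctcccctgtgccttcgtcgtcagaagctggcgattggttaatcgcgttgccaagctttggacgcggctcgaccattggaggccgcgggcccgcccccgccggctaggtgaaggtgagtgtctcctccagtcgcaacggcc
In ASNS the core lies 68 to 61 bases before the start, and in the other 4 promoters between 227 and 122 bases before it. Of these 5 genes, PPP1R15B and MTHFD1L were higher in OVER43, ASNS and GOT1 were lower, and CHAC1 did not pass the test.

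The set did not move as a block. Of the 31 members, 26 reached the level needed for testing (1 FPKM or more in 3 or more of the 6 libraries), and 12 were higher and 4 lower in OVER43 at an adjusted p under 0.05 (limma on log2(FPKM + 1), Benjamini-Hochberg over all 12205 tested genes). The background was broad: 45.9% of all tested genes passed the same test, 28.4% higher and 17.5% lower. The median difference of the tested members was 0.07 on the log2(FPKM + 1) scale, beside 0.05 for all tested genes. The groups did not overlap in 16 of the 26 tested members, beside 56.3% of all tested genes. With a filter at 5 FPKM, 13 of 24 members were higher and 3 lower, beside 52.7% of genes called in either direction. The deposited FPKM summed to 554456 to 566947 per library in OVER43 and 500546 to 509175 in EV, and the split of calls depended on the scaling. Of the genes called, 61.8% were higher with the values as deposited and 62.5% with TMM factors over all nonzero genes. That share was 52.2% with TMM factors over genes past the filter, 51.0% after quantile scaling and 34.3% with equal FPKM sums. Equal sums moved the median of all genes by -0.13. At 0.5 or more on the log2 scale, 5 members were called, against 12.3% of all tested genes.

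**Figure D1:**
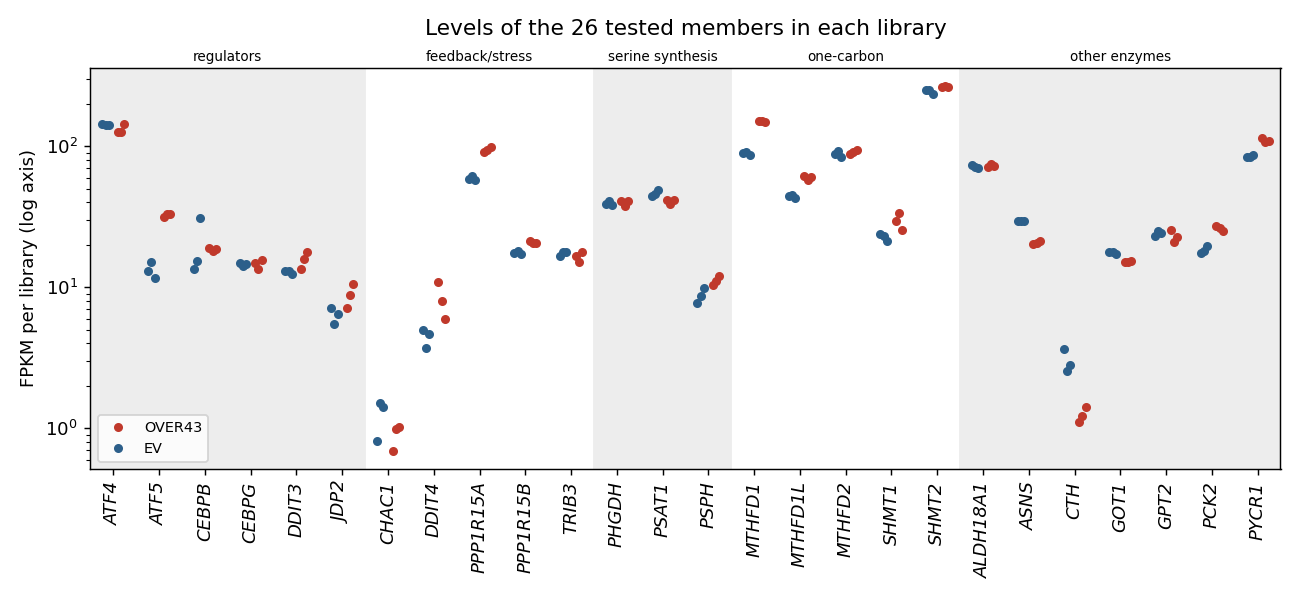
Level of each of the 26 tested members in each of the 6 libraries (FPKM on a log axis), OVER43 and EV side by side, ordered by role. ATF5, PPP1R15A, MTHFD1, ASNS and CTH have groups that lie apart, whereas ATF4, CEBPG, PHGDH and ALDH18A1 overlap.

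**Figure D2:**
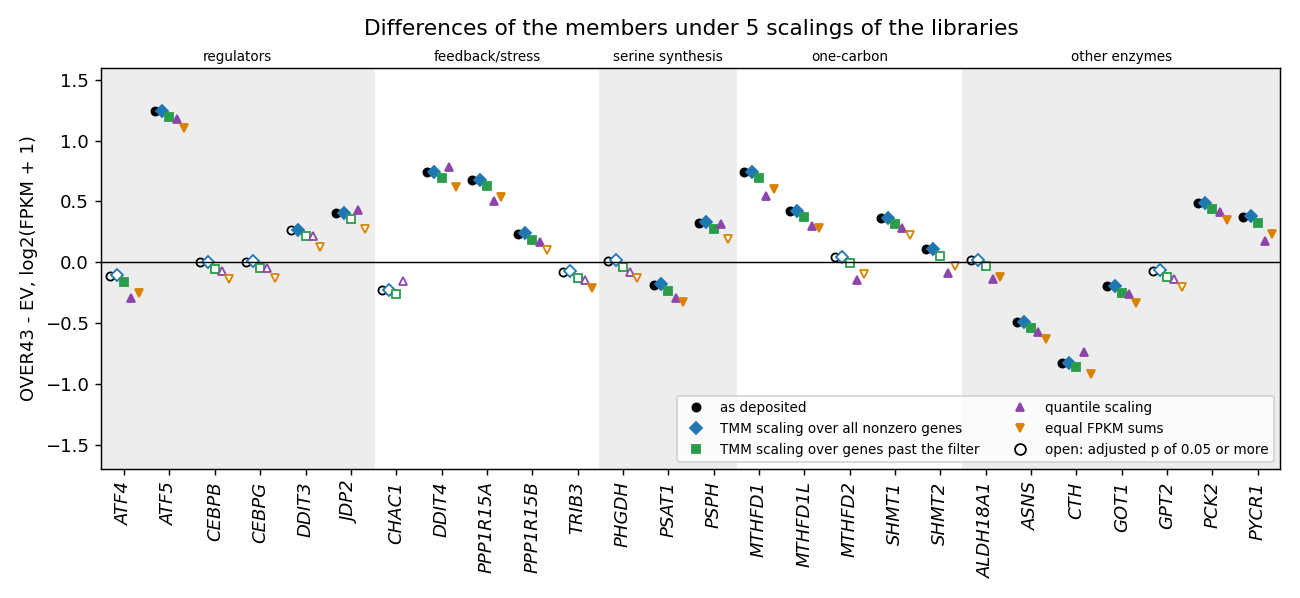
Difference OVER43 minus EV of each tested member (log2(FPKM + 1)) as deposited and after 4 other scalings of the libraries, with open symbols where the adjusted p is 0.05 or more. ATF5, PPP1R15A, MTHFD1 and ASNS keep their sign and call under every scaling, and SHMT2, MTHFD2 and ALDH18A1 cross 0.

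Among the regulators, ATF5 rose and ATF4 itself did not pass the test. ATF4 (ENSG00000128272.10; deposited locus chr22:39915700-39918691) was at 127, 126 and 143 FPKM in OVER43 libraries 0, 1 and 2 and at 143, 142 and 142 FPKM in EV libraries 0, 1 and 2. OVER43 library 2 lay just above the EV values, and the other OVER43 libraries lay below them. The difference was -0.11 (95% interval -0.22 to 0.0040, limma adjusted p = 0.104). ATF4 was called lower without OVER43 library 2 (adjusted p = 0.00433 with limma). It was also called lower with TMM factors over genes past the filter (limma adjusted p = 0.0234), after quantile scaling (0.00114) and with equal FPKM sums (0.00194), and not with TMM factors over all nonzero genes. No setting put ATF4 higher in OVER43. GENCODE 29 names 4 ATF4 pseudogenes, with which reads may be shared.

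ATF5, a stress-induced factor close to ATF4 that is also translated under eIF2 phosphorylation and guards mitochondrial protein folding, showed the largest rise of the set. Its levels were 31.7, 33.3 and 33.1 FPKM in the OVER43 libraries and 13.0, 15.1 and 11.7 FPKM in the EV libraries. Every OVER43 library was above every EV library, and the ratio of the means was 2.46. The log2 difference was 1.24 (95% interval 1.05 to 1.44, limma adjusted p = 2.4e-05), and ATF5 stayed called in all 14 alternative settings. One spliced transcript carried it, ENST00000423777.2, at 24.08, 28.07 and 27.97 FPKM against 10.0, 10.4 and 8.84 FPKM. The exons of ATF5 overlap those of NUP62 on the other strand, and NUP62 did not pass the test (49.4 against 46.1 FPKM). The 171 tested genes within 5 Mb of ATF5 had a median difference of 0.09.

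DDIT3, which encodes the proapoptotic factor CHOP, fell just short of the threshold. It was at 13.4, 15.9 and 17.8 FPKM in OVER43 and 13.0, 13.0 and 12.5 FPKM in EV, a difference of 0.26 (limma adjusted p = 0.0511). It was called higher with TMM factors over all nonzero genes, with a filter at 5 FPKM and without OVER43 library 0. Its exons overlap MARS1 and MBD6 on the other strand, and MARS1 was lower by a difference of -0.21.

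CEBPB and CEBPG encode C/EBP proteins that pair with ATF4. CEBPB was at 19.0, 18.2 and 18.7 FPKM in OVER43 and at 13.5, 15.3 and 31.1 FPKM in EV, so that 1 EV library lay far above all the others. With all libraries the difference was near 0 (limma adjusted p = 0.997), and without EV library 2 it was 0.35 (limma adjusted p = 0.00730). CEBPD, a relative of CEBPB among the other ATF4 targets, had its highest EV value in the same library (4.003, 4.870 and 8.717 FPKM). CEBPD was named after its values were seen, and it did not pass the test (limma adjusted p = 0.0752). CEBPG was at 14.6 ± 1.06 FPKM in OVER43 and at 14.6 ± 0.343 FPKM in EV (SD, n = 3) and did not pass the test. Its main transcript, ENST00000284000.4, was at 13.2, 11.6 and 14.2 FPKM in OVER43 and 11.5, 9.02 and 11.3 FPKM in EV. That transcript did not pass the test (limma adjusted p = 0.185 over transcripts). The smaller ENST00000585933.2 held 8.51% of the gene's FPKM in OVER43 and 25.1% in EV. It fell, to 1.147, 1.557 and 1.028 FPKM in the OVER43 libraries from 2.88, 4.94 and 3.14 FPKM in EV (limma adjusted p = 0.0267 over transcripts). That call was lost in 6 alternative settings. It was lost without any one of the OVER43 libraries and without EV library 1 or 2, with adjusted p between 0.0526 and 0.0839 (limma).

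JDP2, a bZIP factor that represses AP-1 sites, was at 7.10, 8.81 and 10.5 FPKM in OVER43 and 7.15, 5.52 and 6.46 FPKM in EV. The groups overlapped, the difference was 0.40 (limma adjusted p = 0.0422), and the call was lost in 8 of 14 alternatives, among them leaving out OVER43 library 1 or 2 or EV library 1. Without EV library 2 the difference was 0.41 (limma adjusted p = 0.0804). JDP2 lies on chromosome 14, where its neighbours had a median of 0.44. NUPR1, a small stress-induced chromatin protein, was listed at 0 in all 6 libraries.

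**Figure D3:**
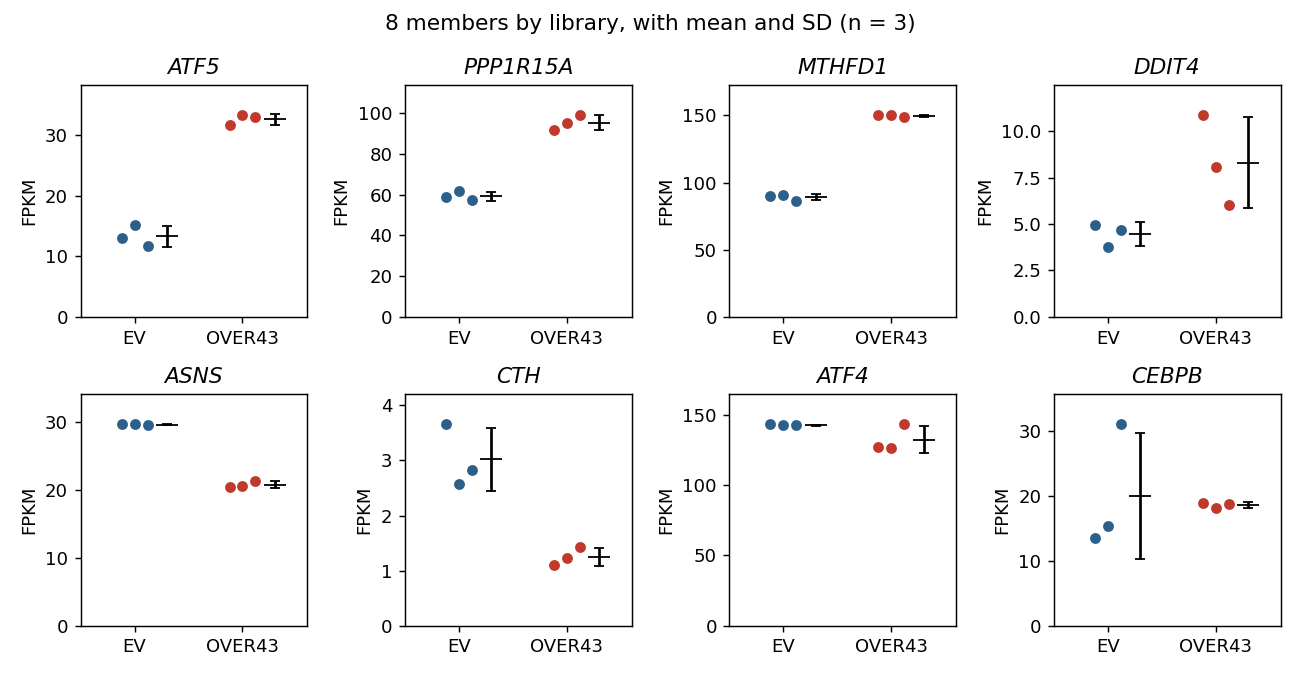
FPKM of selected members in each library, with the mean and SD of each group of 3. The EV points of CEBPB include the single high value of 31.1 FPKM, and the OVER43 points of ATF5 all lie above 31 FPKM.

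The feedback and stress effectors were called higher in 3 of 5 tested members and lower in none, beside 28.4% and 17.5% of all tested genes. PPP1R15A (GADD34), the stress-induced subunit that directs a phosphatase to eIF2, was at 91.77, 94.98 and 99.06 FPKM in OVER43 and 58.7, 61.8 and 57.3 FPKM in EV. The groups lay far apart, with a ratio of 1.61 and a difference of 0.68 (95% interval 0.57 to 0.78, limma adjusted p = 1.9e-05), called in all 14 alternatives. PPP1R15B, the constitutive counterpart, was at 21.5, 20.7 and 20.6 FPKM against 17.6, 18.2 and 17.2 FPKM, a smaller difference of 0.23 (limma adjusted p = 0.00624) that was not called with equal FPKM sums (0.10, adjusted p = 0.162).

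DDIT4 (REDD1), an inhibitor of mTORC1, was at 10.86, 8.053 and 6.005 FPKM in OVER43 and 4.97, 3.74 and 4.70 FPKM in EV. The OVER43 libraries were widely spread but all above EV, and the difference was 0.74 (limma adjusted p = 0.0114), a call lost with no filter (adjusted p = 0.118). TRIB3, a pseudokinase that restrains ATF4, was at 16.5 ± 1.32 FPKM in OVER43 and at 17.4 ± 0.576 FPKM in EV (SD, n = 3), not called as deposited and called lower with equal FPKM sums (-0.21, limma adjusted p = 0.0302). CHAC1, a glutathione-degrading enzyme widely used as an ATF4 readout, was low, at 0.695 to 1.03 FPKM in OVER43 and 0.818 to 1.52 FPKM in EV, and did not pass the test. STC2, a secreted glycoprotein, and VLDLR, a lipoprotein receptor, averaged under 0.1 FPKM in both groups and were not tested.

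The serine synthesis enzymes did not move together. PHGDH, which takes the first step from the glycolytic intermediate 3-phosphoglycerate, was at 40.7, 38.0 and 40.9 FPKM in OVER43 and 38.9, 41.1 and 38.5 FPKM in EV. The groups overlapped fully, and the difference was 0.01 (95% interval -0.10 to 0.12). PSAT1, the transaminase of the second step, was at 41.8, 39.0 and 41.4 FPKM in OVER43 and 44.6, 45.9 and 48.7 FPKM in EV. It was lower by a difference of -0.18 (limma adjusted p = 0.0165), and the call was lost without OVER43 library 1 (adjusted p = 0.0561) and with no filter (0.0803). PSPH, the phosphatase of the last step, was higher, at 10.46, 11.03 and 12.02 FPKM against 7.72, 8.67 and 9.87 FPKM (0.32, limma adjusted p = 0.0228). That call was lost in 6 alternatives, 4 of which leave out a single library (OVER43 library 1 or 2, or EV library 0 or 1). GENCODE 29 names 4 pseudogenes of PSAT1 and 1 of PSPH.

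Of the one-carbon enzymes, 4 of 5 tested members were higher and none was lower with the values as deposited, beside 28.4% and 17.5% of all tested genes. After quantile scaling SHMT2 and MTHFD2 were called lower. MTHFD1, the cytosolic enzyme with 3 activities on folate, was at 150, 150 and 149 FPKM in OVER43 and 90.2, 90.9 and 86.5 FPKM in EV. The libraries of each group lay within a few FPKM of each other, the ratio was 1.68, and the difference was 0.74 (95% interval 0.67 to 0.82, limma adjusted p = 2.7e-06). MTHFD1 lies on chromosome 14, where the 52 tested genes within 5 Mb had a median difference of 0.38. Its exons overlap ZBTB25 on the other strand, which was also higher (7.16 against 4.91 FPKM). GENCODE 29 names 1 pseudogene of MTHFD1, 1 of SHMT1 and 7 of MTHFD2, with which reads may be shared.

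MTHFD1L, which makes formate in mitochondria, was at 61.3, 57.5 and 60.3 FPKM in OVER43 and 44.4, 45.2 and 43.4 FPKM in EV. The groups did not overlap, and the difference of 0.42 (limma adjusted p = 0.000126) stood beside a neighbour median of 0.07. SHMT1, the cytosolic serine hydroxymethyltransferase, was at 29.7, 33.9 and 25.4 FPKM against 23.8, 23.3 and 21.2 FPKM (0.36, limma adjusted p = 0.0173), a call lost without EV library 2 (0.31, limma adjusted p = 0.0555), with equal sums and with no filter. SMCR8, whose exons overlap SHMT1 on the other strand, was also higher, by 0.40.

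SHMT2, the mitochondrial hydroxymethyltransferase, was the most abundant member, at 264, 269 and 265 FPKM in OVER43 and 253, 251 and 236 FPKM in EV. Its difference of 0.11 (limma adjusted p = 0.0285) was not kept: SHMT2 was called lower after quantile scaling (-0.09, limma adjusted p = 0.0429) and had a negative difference with equal FPKM sums (-0.04). The call was lost in 7 further alternatives, among them without any one OVER43 library and without EV library 2 (0.08, limma adjusted p = 0.0630). MTHFD2, its mitochondrial partner and a gene strongly linked to proliferation, was at 90.9 ± 2.97 FPKM in OVER43 and at 88.3 ± 3.81 FPKM in EV (SD, n = 3) and did not pass the test as deposited. It was called lower after quantile scaling (-0.15, limma adjusted p = 0.0172). ALDH1L2, a mitochondrial folate dehydrogenase, was not tested. It reached 0.252 FPKM in OVER43 library 1 and 0.0287 FPKM or less in the other 5 libraries.

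**Figure D4:**
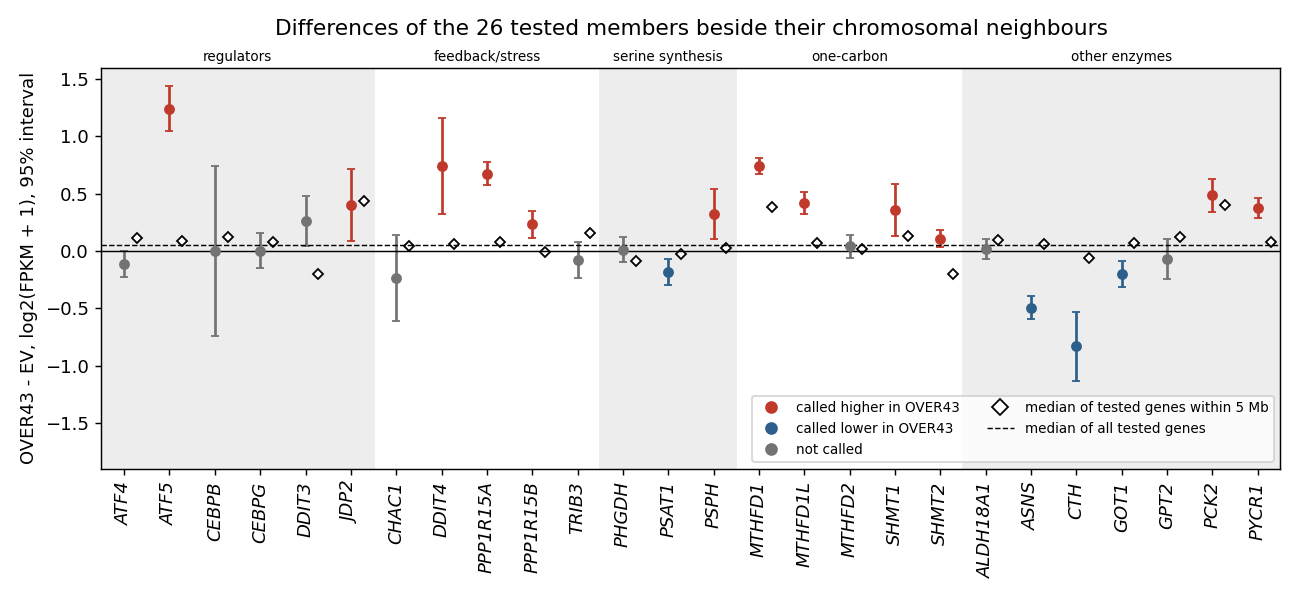
Difference OVER43 minus EV of each tested member (log2(FPKM + 1), points with 95% intervals), ordered by role, with the median of neighbouring genes within 5 Mb marked for each. The 3 members on chromosome 14 stand beside neighbour medians of 0.38 to 0.44, and ATF5 at 1.24 beside 0.09.

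The other amino acid enzymes held 3 of the 4 members that fell. ASNS, which makes asparagine and is a classic ATF4 target, was at 20.4, 20.5 and 21.4 FPKM in OVER43 and 29.7, 29.7 and 29.5 FPKM in EV. Spread within each group was small, the ratio was 0.701, and the difference was -0.49 (95% interval -0.60 to -0.39, limma adjusted p = 8.5e-05). GENCODE 29 names 4 ASNS pseudogenes and a transcript, AC079781.5, that overlaps ASNS exons on the same strand. CTH, which makes cysteine from cystathionine, was low in both groups, at 1.10, 1.23 and 1.42 FPKM against 3.66, 2.57 and 2.82 FPKM. Its ratio was 0.414 and its log2 difference -0.83 (limma adjusted p = 0.00135). GOT1, the cytosolic aspartate aminotransferase, was at 15.1, 15.2 and 15.4 FPKM against 17.8, 17.7 and 17.3 FPKM (-0.20, limma adjusted p = 0.0118). ASNS, CTH and GOT1 were called lower in every alternative in which they were tested.

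PYCR1 and PCK2 rose. PYCR1, which makes proline in mitochondria, was at 115, 107 and 109 FPKM in OVER43 and 84.3, 84.1 and 86.7 FPKM in EV (0.37, limma adjusted p = 0.000143). PCK2, the mitochondrial phosphoenolpyruvate carboxykinase, was at 27.4, 26.2 and 25.2 FPKM against 17.5, 18.2 and 19.8 FPKM (0.48, limma adjusted p = 0.000432), on chromosome 14 beside neighbours with a median of 0.40. ALDH18A1, which feeds PYCR1, was at 72.9 ± 1.72 and 72.0 ± 1.98 FPKM (SD, n = 3), and GPT2, the mitochondrial alanine aminotransferase, at 23.0 ± 2.31 and 24.1 ± 1.03 FPKM, in OVER43 and EV. Neither passed the test as deposited, and ALDH18A1 was called lower after quantile scaling (-0.14) and with equal FPKM sums (-0.12). CBS, which makes cystathionine for CTH, averaged 0.263 and 0.320 FPKM and was not tested.

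Where a member lies bore on how its value reads. JDP2, MTHFD1 and PCK2, the 3 tested members on chromosome 14, were all higher, and of the 431 tested genes of that chromosome 68.2% were called higher, with a median difference of 0.43. On the other chromosomes, 9 of 23 tested members were higher and 4 were lower. Of all tested genes, chromosome 14 included, 28.4% were higher and 17.5% lower. Copy number was not measured, and its part in the chromosome 14 values was not tested. Outside that chromosome, ATF5, DDIT4 and PPP1R15A were the members with rises of 0.5 or more, with neighbour medians of 0.09, 0.06 and 0.08. SHMT2 (0.11) and DDIT3 (0.26, not called) lie on chromosome 12, where the 118 tested genes within 5 Mb had a median of -0.20. The part of copy number in those values was not tested either.

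At the level of transcripts, 69 entries of the members were tested, of which 11 were higher and 3 lower, against 14.6% of all tested transcripts called in either direction. Leaving out any one library gave 7 to 9 higher and 1 to 2 lower, with the fewest higher without OVER43 library 1, and the column number as a block gave 6 higher and 2 lower. In ASNS the transcript ENST00000394308.3, with 88.9% of the gene's FPKM in OVER43, fell to 17.9, 19.0 and 18.5 FPKM from 24.9, 26.8 and 26.9 FPKM in EV. In MTHFD1 the transcript ENST00000216605.8 rose from 67.0, 65.7 and 65.0 FPKM to 118, 118 and 116 FPKM. In SHMT1 the transcript ENST00000354098.3 rose from 5.06, 5.43 and 5.63 FPKM to 8.76, 8.78 and 8.55 FPKM, with tighter groups than the gene as a whole. In the authors' deposited table, 27 members had a completed test and 8 were significant, against 21.3% of all genes. In the authors' deposited table these were ATF5, PPP1R15A, DDIT4, MTHFD1, PCK2 and PYCR1 higher and ASNS and CTH lower, each a member called in the same direction by limma.

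The companion lists gave the rest of the pathway. Their counts stand beside the same background of 28.4% of all tested genes higher and 17.5% lower. Of the 16 eIF2 kinases and partners, 8 were higher and none lower, with a median of 0.20, so that the share called (50.0%) was near the 45.9% of all tested genes. Quantile scaling gave 5 higher (median 0.09), and equal FPKM sums 5 higher and 1 lower (median 0.06). EIF2S1, the eIF2 subunit that is phosphorylated, was at 316 ± 5.86 FPKM against 195 ± 8.36 FPKM (SD, n = 3) and lies on chromosome 14, and EIF2B5, a subunit of the exchange factor of eIF2, was at 36.9 ± 2.28 FPKM against 23.8 ± 1.08 FPKM on chromosome 3. The smallest called differences were those of EIF2AK4 (GCN2, 0.16) and its activator GCN1 (0.22). The kinase PERK, EIF2AK3, named after its values were seen, was at 7.04, 8.83 and 4.25 FPKM against 5.52, 4.82 and 4.67 FPKM, overlapping groups that did not pass the test.

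Cytosolic tRNA synthetases, which charge tRNAs with amino acids, were split. Of 19 tested, 9 were higher and 4 lower as deposited, with a median of 0.06. The balance turned to 3 higher and 7 lower after quantile scaling (median -0.02) and to 4 higher and 6 lower with equal FPKM sums (median -0.08). WARS1 (0.50, on chromosome 14) and TARS1 (0.40) rose most, beside neighbour medians of 0.58 and 0.14, so that WARS1 lay below its neighbours. MARS1 (-0.21) and IARS1 (-0.18) fell most, beside neighbour medians of -0.20 and -0.31. Of 28 other ATF4 targets tested, 11 were higher and 8 lower as deposited, against 6 higher and 9 lower after quantile scaling and 7 higher and 10 lower with equal FPKM sums. ERO1A, an oxidase of the endoplasmic reticulum on chromosome 14, rose by 0.61, and SLC1A5, a glutamine carrier, by 0.51. The stress factor ATF3 was at 0.464 ± 0.0612 FPKM in the OVER43 libraries and 1.29 ± 0.281 FPKM in EV (SD, n = 3). The netrin receptor UNC5B was at 0.369 ± 0.0387 and 1.81 ± 0.149 FPKM. ATF3 and UNC5B were under 1 FPKM in every OVER43 library and passed the filter through the EV libraries alone. The filter thus favoured a fall, and their calls among the 8 lower genes are not evidence about the list. SLC7A11, the cystine carrier, was named after its values were seen, and it fell from 2.31, 2.17 and 2.03 FPKM to 1.10, 1.23 and 1.13 FPKM.

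Of 15 folate cycle genes tested, 9 were higher and 3 lower, with a median of 0.21. Equal FPKM sums gave 5 higher and 3 lower, with a median of 0.07. MTHFS, which recycles a stored folate, was at 36.0 ± 1.62 FPKM against 21.0 ± 0.689 FPKM, and TYMS, the thymidylate synthase, at 133 ± 1.54 FPKM against 83.7 ± 5.21 FPKM (SD, n = 3). FPGS and GGH, which add and remove the glutamate tail of folates, both fell, by a difference of -0.29 and -0.23, beside neighbour medians of -0.29 and 0.11. Of 13 transsulfuration and methionine cycle genes tested, 2 were higher, GSS (0.38) and AHCY (0.12), and 4 lower, with CSAD (-0.77) and SQOR (-0.54) the lowest. Neighbour medians were 0.22 for GSS, 0.22 for AHCY, -0.18 for CSAD and 0.04 for SQOR, so that AHCY lay below its neighbours. Quantile scaling gave 1 higher and 5 lower, and equal FPKM sums 1 higher and 6 lower.

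**Figure D5:**
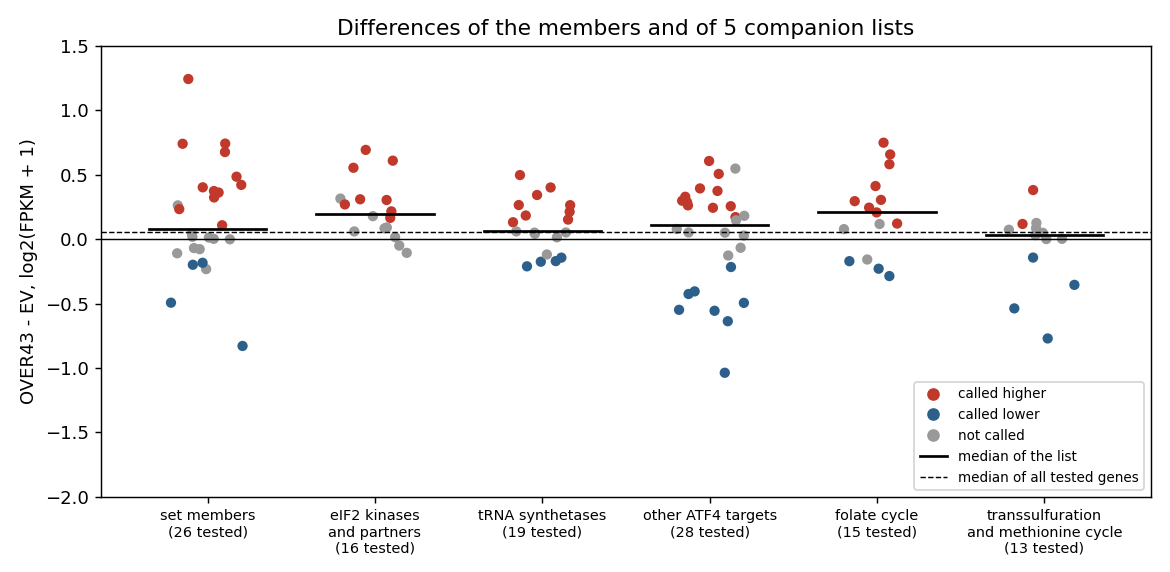
Difference OVER43 minus EV (log2(FPKM + 1)) of each tested gene of the set and of the 5 companion lists, coloured by call, with the median of each list as a bar and that of all tested genes as a dashed line. The folate cycle (0.21) and eIF2 (0.20) lists have the highest medians with the values as deposited, and the other ATF4 targets are spread on both sides of 0.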

How the data were processed

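PolyA RNA of RKO cells was sequenced as 3 EV and 3 OVER43 libraries. The authors deposited FPKM per gene and per isoform entry, with log2 fold changes, a test statistic (score) and p-values and q-values per comparison, made with Cuffdiff per the submitters' processing notes. Which aligner was run, and whether counting used strand, the sources used here do not give. Those notes name hg38, but the positions in the files follow hg19 numbering, and are printed 1-based as such; promoters are RefSeq GRCh38.p14. Gene FPKM were tested with limma 3.58.1 in R 4.3.3 (trend and robust) on log2(FPKM + 1), after a filter of at least 1 FPKM in at least 3 libraries, with Benjamini-Hochberg adjustment over 12205 genes. The pseudocount understates changes of low genes. An exact permutation test of 3 against 3 cannot go below 0.1 and was not used. On data simulated for this comparison (11991 genes), 100 genes were changed by 0.5 (log2) and 100 by 1. The changed genes were drawn above a floor of level, and the noise was independent and normal. The fit recovered 68% of the genes changed by 0.5 and 97% of those changed by 1, with 4 false calls. Far fewer genes were changed there than the 45.9% called in the real data. The shares do not extend to low members such as CTH. The 19 genes marked HIDATA or FAIL were left out, and no per-library column went unused. The depth implied by the FPKM was read from low values, of which 100% were whole fragments within 0.1. Neighbours are tested genes within 5 Mb, members left out.

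Every member is named, and from each companion list the 2 highest and the 2 lowest called genes. CEBPD, EIF2AK3 and SLC7A11 were named outside that rule, after their values were seen. The members and lists were chosen with earlier results of these data known. TMM factors were first computed over all nonzero genes. After that result was seen, a second version over genes past the filter was added, and both are reported.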

Additional observations from a re-analysis of the deposited data

How the results depend on the processing

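Over 14 alternative settings, 298 of 358 pairs of a member and a setting kept direction and side of the threshold, 28 lost the call, 8 gained one and 24 changed sign. ATF5, PPP1R15A, MTHFD1, MTHFD1L, ASNS, CTH, PYCR1, GOT1 and PCK2 were called in the same direction in every setting that tested them. The 2 versions of TMM scaling differed: over all nonzero genes, 3526 genes were higher and 2112 lower (members 13 and 4), and over genes past the filter, the version added after that result was seen, 2814 and 2581 (members 10 and 5). Quantile scaling gave 8 lower members, equal FPKM sums 1867 higher and 3579 lower genes and 7 higher and 7 lower members, and no filter 7 higher members. Leaving out 1 library gave 2953 to 3158 higher and 1661 to 1899 lower genes, and 9 to 12 higher and 3 to 5 lower members.

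In the companion lists, quantile scaling gave 5 higher eIF2 genes, 3 higher and 7 lower synthetases, 6 higher other targets and 1 higher transsulfuration gene. Equal sums gave 5 higher and 1 lower eIF2 genes, 4 higher synthetases, 7 higher other targets, 5 higher folate genes and 1 higher transsulfuration gene. No filter gave 1 lower synthetase, 7 higher and 5 lower other targets, 5 higher folate genes and 1 higher transsulfuration gene. A filter at 5 FPKM gave 3 lower other targets, and TMM over genes past the filter 1 higher transsulfuration gene. Member transcripts called lower numbered 5 with that TMM version, 6 with quantile scaling, 6 with equal sums and 1 with no filter, which also gave 7 higher. Leaving out 1 library gave 6 to 9 higher and 0 lower eIF2 genes, 7 to 9 and 3 to 4 synthetases, 10 to 12 and 6 to 8 other targets, 7 to 8 and 2 to 3 folate genes, 1 to 2 and 2 to 3 transsulfuration genes, and 7 to 9 and 1 to 2 member transcripts.

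Libraries of equal column number did not deviate together (correlations of deviations 0.017, -0.091 and 0.029). With so few libraries these values cannot settle whether equal numbers shared a culture or batch. With the number as a replicate block, 3306 genes were higher and 2010 lower, 10 members higher and 4 lower, 1 transsulfuration gene higher and 6 member transcripts higher.

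Signs changed for 6 members. CEBPB was 0.0018 with TMM over all nonzero genes, 0.0027 with a pseudocount of 0.1 FPKM, 0.015 without OVER43 library 1 and 0.35 without EV library 2. CEBPG was -0.048 with TMM over genes past the filter, -0.051 with quantile scaling, -0.13 with equal sums, and -0.0063, -0.042 and -0.016 without OVER43 library 0, OVER43 library 2 and EV library 1. PHGDH was -0.041, -0.084 and -0.13 with those 3 scalings, and -0.0031, -0.0072 and -0.0054 without OVER43 library 0, OVER43 library 2 and EV library 2. MTHFD2 was -0.011, -0.15 and -0.10 and ALDH18A1 -0.035, -0.14 and -0.12 with the same scalings, and SHMT2 was -0.087 with quantile scaling and -0.035 with equal sums. Leaving out 1 library gave -0.22 to 0.35 for CEBPB, -0.042 to 0.055 for CEBPG and -0.0072 to 0.046 for PHGDH. The cause of these changes was not tested.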
